A study of Homo sapiens with 16 samples.

Results

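The transcripts described here are those of 36 genes of the cellular response to low oxygen, counted in spheroids of 3 prostate cancer cell lines after knockdown of MED12, which belongs to the Mediator kinase module. The genes were chosen by name, 7 of them as regulators of the hypoxia-inducible factors (HIF) and 29 as hypoxia-induced genes outside glycolysis, from the 62703 genes of the count table. The choice was made with earlier results of these data known. Shares of these genes set beside those of all genes are therefore descriptive and not an independent test. Of the 36, 32 had enough counts to be tested, against 10566 genes tested in all. LNCaP cells (androgen-dependent), 22Rv1 cells (androgen-responsive, resistant to enzalutamide) and PC3 cells (without androgen receptor protein) received 25 pmol of pooled siRNAs, either against MED12 (siMED12) or non-targeting (siCtrl), and were grown flat for 3 days. They were then reseeded in plates of ultra low attachment, where they formed spheroids that were collected after a further 4 days. Each line had 3 siCtrl libraries, and siMED12 was sampled by 3 libraries in LNCaP and 2 each in 22Rv1 and PC3. No oxygen level, drug or second siRNA pool was varied by design between these groups, and every group was kept in serum-containing medium. The paper reports that the knockdown lowered the number of cells in the spheroids of every line. The groups are therefore not known to be matched for spheroid size or for oxygen within the spheroids. Neither is given for these libraries, and the part of spheroid size or oxygen in the results was not tested. The labels number the replicates but do not say which came from separate cultures, so the p-values measure the spread between these libraries.

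Hypoxia-inducible factors are pairs of an oxygen-regulated alpha subunit, HIF-1α (HIF1A) or HIF-2α (EPAS1), and the stable partner ARNT. While oxygen is plentiful, prolyl hydroxylases (EGLN1, EGLN3) mark the alpha subunits for the ubiquitin ligase that contains VHL, and the asparaginyl hydroxylase HIF1AN blunts their transcriptional activity. At low oxygen the alpha subunits are stabilised as proteins, bind DNA at short elements with the core ACGTG or GCGTG, and raise genes for acid export, vessel growth, mitophagy, collagen modification and chromatin demethylation. Spheroids are widely used because oxygen and nutrients reach their centre less well than their rim. Since this control acts mostly on the HIF-1α protein, its messenger RNA says little about its activity, and no protein was measured in these libraries.

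The promoters of BNIP3, CA12 and ANGPTL4 are shown as examples of genes that fell in LNCaP (BNIP3) or 22Rv1 (CA12, ANGPTL4) and whose windows hold the HIF core. Windows of 300 bases, from 250 before to 50 after the start, came from the RefSeq promoter table (GRCh38.p14), which held 28 of the 36 genes. The stretches printed lie in no exon of Gencode release 44, run 5′ to 3′ along the gene's strand, and have the core in capitals on either strand, so that CACGC is the reverse complement of GCGTG and CACGT that of ACGTG. They are chr10:131982003-131982086 (minus strand) for BNIP3, chr15:63382056-63382096 (minus strand) for CA12 and chr19:8363905-8363945 (plus strand) for ANGPTL4. The ANGPTL4 stretch precedes the RefSeq start used, but lies inside the Gencode bounds of that gene, which run from 8363289 to 8374370.
BNIP3: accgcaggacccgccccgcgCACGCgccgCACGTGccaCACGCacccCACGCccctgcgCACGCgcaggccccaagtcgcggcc
CA12: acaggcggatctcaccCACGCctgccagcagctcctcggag
ANGPTL4: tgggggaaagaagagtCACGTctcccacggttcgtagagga
The BNIP3 window held 6 matches, of which 2 come from a single palindrome CACGTG that is counted once on each strand. Among the 28 genes in the table, 22 windows (78.6%) held ACGTG or GCGTG on either strand, against 48.4% of the 27305 promoters in the table and 65.6% of the 5934 promoters of genes with at least 200 counts over all libraries. The ACGTG core alone was in 15 (53.6%) of the 28, against 21.6% and 28.8%. CACGTG is also the E-box read by other factors, and a match describes letters only, not a bound site.

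Library totals ran from 479118 to 993807 counts, so that 3 counts, the most that a count of 0 allows, equalled 3.15 to 6.22 CPM (counts scaled to a common library total), and intervals of this kind cover counting error only. Androgen receptor targets summed to 5688 to 6413 CPM in LNCaP siCtrl and 46.3 to 73.7 CPM in PC3 siCtrl. PC3 markers such as VIM and CAV1 summed to 2234 to 3172 CPM in PC3 siCtrl. PTPRC, which marks leukocytes, was at 0 counts in every library. With CD14, PECAM1, COL1A1 and COL3A1 added, the 5 markers of other cell types were not absent. They summed to 21.5 to 32.9 CPM in LNCaP siCtrl, 0 to 13.4 in 22Rv1 siCtrl and 62.0 to 109.7 in PC3 siCtrl. MED12 itself did not pass the test in any line: its log2 fold change was -0.50 ± 0.46 (SE) in LNCaP, -1.28 ± 0.46 in 22Rv1 and -0.22 ± 0.43 in PC3 (adjusted p = 0.878, 0.175 and 0.987, edgeR), and the 2 groups overlapped in LNCaP and in PC3. MED12 had few counts, with 9.94 to 12.9 CPM in LNCaP siCtrl, 16.7 to 23.4 in 22Rv1 siCtrl and 8.41 to 28.4 in PC3 siCtrl. A fall is hard to detect at such levels. The paper reports, from its own measurements, a highly efficient knockdown in the spheroids. Of the libraries, 2 stood apart. Genes restricted to PC3 (20 genes) were present in 22Rv1 siMED12 replicate 3 at 4.86% of their PC3 level, against at most 1.20% in the other 22Rv1 libraries, and genes restricted to LNCaP (only 2 genes) in PC3 siMED12 replicate 3 at 2.68% of their LNCaP level, against at most 1.20% in the other PC3 libraries. Medians and separation counts in 22Rv1 and PC3, and values called in 22Rv1, are given with and without them. Most other values of single genes in these lines are given only with them.

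The first comparison asked how the lines differed in these genes before any knockdown. In siCtrl spheroids LNCaP had the highest mean level of 16 of the 32 tested genes, PC3 of 11 and 22Rv1 of 5. LNCaP was high in mitochondrial and mitophagy genes and in EGLN3, PC3 in HIF1A, EPAS1, the collagen prolyl hydroxylase subunits P4HA1 and P4HA2 and ERO1A, and 22Rv1 in CA12 and ANGPTL4. Past the threshold, adjusted p under 0.05 by the edgeR quasi-likelihood test over all 10566 genes, 17 of the 32 genes differed between 22Rv1 and LNCaP (43.2% of all genes did), 27 between PC3 and LNCaP (54.7%) and 24 between PC3 and 22Rv1 (54.9%). Every LNCaP siCtrl library lay above every siCtrl library of the other lines for 9 of the 32 genes (14% of all genes) and below for 4 (12.3%). For 22Rv1 these counts were 2 (13.8%) and 5 (11.8%), and for PC3 7 (20.8%) and 11 (15.4%).

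Among the regulators, HIF1A was 337 ± 94.0 CPM (SD, n = 3) in PC3 siCtrl, 101 ± 24.7 in 22Rv1 and 85.2 ± 12.4 in LNCaP. PC3 differed from LNCaP by 1.99 ± 0.20 on the log2 scale (adjusted p = 5.74e-10, edgeR), whereas 22Rv1 and LNCaP did not pass the test (0.27 ± 0.23, adjusted p = 0.364). EPAS1 followed the same order at a lower level, with 29.9 ± 8.72 CPM in PC3, 12.5 ± 2.59 in 22Rv1 and 1 to 2 counts per library in LNCaP. ARNT went the other way, with 15.3 ± 5.40 CPM in PC3 and 45.0 ± 22.5 in LNCaP, a log2 difference of -1.44 ± 0.43 (adjusted p = 0.00502, edgeR). VHL was 33.9 ± 11.8 CPM in LNCaP, 34.6 ± 6.32 in 22Rv1 and 34.9 ± 3.92 in PC3, and no pair of lines passed the test. HIF1AN was lowest in LNCaP, at 21.5 ± 2.83 CPM, and PC3 exceeded it by 0.63 ± 0.25 (adjusted p = 0.0331, edgeR). The prolyl hydroxylase EGLN3, itself a HIF target, stood out in LNCaP with 118, 100.3 and 80.6 CPM, against 7.22 to 14.2 CPM in PC3 and 0 to 2 counts per library in 22Rv1. EGLN1, the main oxygen sensor in most cells, had 0 to 2 counts per library and was not tested; 90.8% of the last 500 exonic bases of its annotation are shared with another gene on the same strand, which also had 0 counts.

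**Figure D1:**
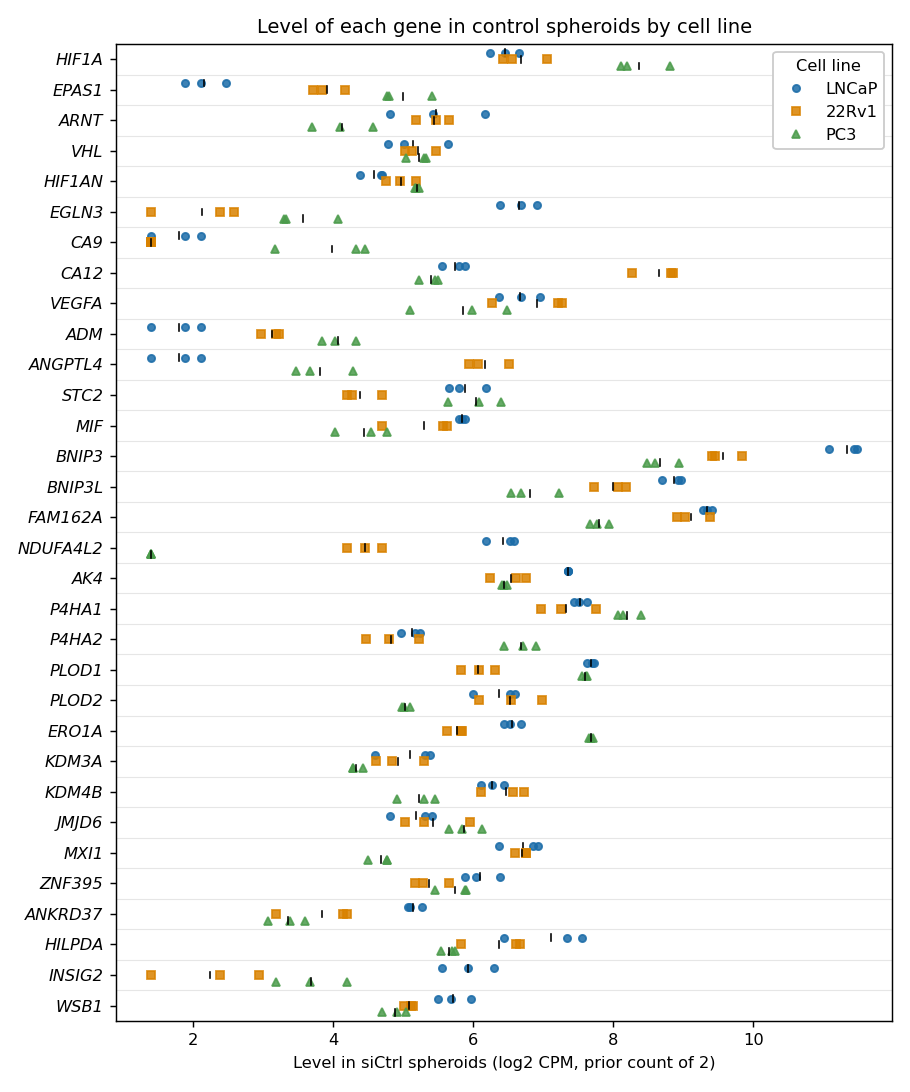
Level of the 32 tested genes in siCtrl spheroids, as log2 CPM with a prior count of 2 on the horizontal axis and 1 gene per row; each point is a library (3 per line), coloured by cell line, and black ticks are means. EGLN3, BNIP3, NDUFA4L2 and INSIG2 sit highest in LNCaP, CA12 and ANGPTL4 in 22Rv1, and HIF1A, EPAS1, P4HA2 and ERO1A in PC3.

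Genes of acid handling and of secreted factors also differed between the lines. CA12, a membrane carbonic anhydrase, was 405 ± 87.2 CPM in 22Rv1 (n = 3), 51.2 ± 6.10 in LNCaP and 39.4 ± 4.18 in PC3, 7.91 times as high in 22Rv1 as in LNCaP. Its relative CA9, a widely used marker of hypoxia, had 0 counts in every 22Rv1 library and at most 1 count in LNCaP, but 19.4, 6.31 and 17.3 CPM in PC3 siCtrl, at least 3.37-fold higher than a floor of 3 counts in each 22Rv1 library. ANGPTL4, a secreted inhibitor of lipoprotein lipase, was 70.4 ± 16 CPM in 22Rv1 and 11.8 ± 4.42 in PC3, with at most 1 count in LNCaP. The vessel growth factor VEGFA was 100.2 ± 20.7 CPM in LNCaP, 124 ± 43 in 22Rv1 and 59.6 ± 27.5 in PC3. Adrenomedullin (ADM) was highest in PC3 at 14.2 ± 2.9 CPM, while stanniocalcin 2 (STC2) was lowest in 22Rv1 at 18.6 ± 4.22 CPM. MIF, a cytokine, was 54.5 ± 1.58 CPM in LNCaP and 19.6 ± 5.52 in PC3, but its 3′ end is shared with annotated genes on both strands and its level is uncertain.

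The mitochondrial group ran in 1 direction, LNCaP highest and PC3 lowest for 5 of 5 genes by mean level. BNIP3 and BNIP3L, receptors that deliver mitochondria to autophagy, were 2599.8 ± 380.3 and 465 ± 45.1 CPM in LNCaP, 764 ± 132 and 255 ± 41.1 in 22Rv1, and 409.6 ± 69.3 and 112 ± 30.4 in PC3. NDUFA4L2, a complex I associated protein that lowers respiration, was 84.2 ± 12.4 CPM in LNCaP and 19.4 ± 3.89 in 22Rv1, and had 0 counts in each of the 5 PC3 libraries, so that LNCaP was at least 22.2-fold higher than 3 counts per PC3 library. The 2 other genes of the group differed less: FAM162A was 2.94 times and the mitochondrial adenylate kinase AK4 1.91 times as high in LNCaP as in PC3. Collagen and secretory pathway genes were ordered differently. P4HA2, a subunit of collagen prolyl hydroxylase, was 101 ± 16.5 CPM in PC3 and 32.3 ± 3.26 in LNCaP, and ERO1A, which reoxidises protein disulfide isomerase, was 203 ± 4.58 in PC3, 91.3 ± 8.11 in LNCaP and 51.8 ± 4.33 in 22Rv1. The lysyl hydroxylase PLOD1 was 203 ± 7.99 CPM in LNCaP, 192 ± 5.18 in PC3 and 65.3 ± 11.5 in 22Rv1, whereas its paralog PLOD2 was lowest in PC3 at 30.0 ± 1.36 CPM. Lysyl oxidase (LOX) stayed under 12 CPM in every library and was not tested. Of the chromatin and transcription genes, the MYC antagonist MXI1 was 104 ± 21.3 CPM in LNCaP, 101 ± 6.75 in 22Rv1 and 23.0 ± 2.63 in PC3, and the demethylases KDM3A and KDM4B had every PC3 library below those of the other lines. INSIG2, which retains the sterol sensor in the endoplasmic reticulum, was 59.5 ± 15.7 CPM in LNCaP and 2.53 ± 2.51 in 22Rv1.

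The second comparison asked what MED12 knockdown did in LNCaP spheroids. BNIP3, BNIP3L, PLOD1, ERO1A and HILPDA fell, and 0 of the 32 rose (0.0473% of all genes did). In mean CPM BNIP3L fell by 36.3% and HILPDA fell by 55.2%, with the other 3 in between. In all, 5 of 32 passed the test as lower, where 0.369% of all tested genes did (39 of 10566). The sign was shared by many genes that did not pass: the log2 fold change was negative for 28 of 32 with a median of -0.57, against 50.4% of all genes and a median of -0.004. Leaving out EPAS1, CA9, ADM and ANGPTL4, which had at most 3 counts in every LNCaP library, 24 of 28 were negative with a median of -0.53. Every siMED12 library lay below every siCtrl library for 12 of 32 genes (6.75% of all genes), and above for 0 (5.89%). In these bulk libraries fewer cells with a transcript and less of it per cell cannot be told apart.

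BNIP3 (chromosome 10, 131967684 to 131981967) was 2164, 2863 and 2773 CPM in the siCtrl libraries and 1641, 651 and 1735 in the siMED12 libraries. Every siMED12 library was below every siCtrl library, and replicate 2 was far below the other two. The log2 fold change was -0.95 ± 0.20 (adjusted p = 0.0151, edgeR), and without siMED12 replicate 2 it was -0.62 (adjusted p = 0.0750). The call was also lost without siCtrl replicate 2 (adjusted p = 0.153) or siCtrl replicate 3 (0.112), with the value between -0.86 and -0.89. BNIP3L, the paralog of BNIP3 and a receptor for the same process, was 414, 483 and 499 CPM in siCtrl and 333, 228 and 329 in siMED12. The groups did not overlap, and the log2 fold change was -0.65 ± 0.15 (adjusted p = 0.0424, edgeR). This call sat near the threshold: it was kept in 1 of 6 fits with a LNCaP library left out, in which the value ran from -0.74 to -0.50. Part of the 3′ end of BNIP3L (66.0% of the last 500 bases) lies opposite a gene on the other strand, and whether the counting used the strand is not stated.

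PLOD1 (chromosome 1, 11934205 to 11975538), which hydroxylates lysines of collagen, was 194, 209 and 206 CPM in siCtrl and 129, 66.7 and 98.9 in siMED12. The highest knockdown library was well below the lowest control. Its log2 fold change of -1.05 ± 0.17 (adjusted p = 0.000866, edgeR) was the firmest of the 5, and it passed in each of the 6 fits that left out a LNCaP library, including that without siMED12 replicate 2 (-0.85, adjusted p = 0.0178). ERO1A (chromosome 14, 52639915 to 52695900) was 84.5, 100.3 and 89.0 CPM in siCtrl and 54.6, 29.4 and 57.5 in siMED12. Here too the groups did not overlap, with a log2 fold change of -0.94 ± 0.20 (adjusted p = 0.0158, edgeR). It was -0.70 (adjusted p = 0.269) without siMED12 replicate 2, and the call was lost without siCtrl replicate 2 (adjusted p = 0.155) or 3 (0.0893). HILPDA (chromosome 7, 128455849 to 128458418), a lipid droplet protein that inhibits triglyceride breakdown, was 84.5, 159 and 184 CPM in siCtrl and 68.5, 50.7 and 72.4 in siMED12. The control libraries were themselves spread, with replicate 1 nearer to the knockdown libraries than to the other controls. Its log2 fold change was -1.19 ± 0.23 (adjusted p = 0.0113, edgeR), and the call was lost without siCtrl replicate 2 (adjusted p = 0.103), siCtrl replicate 3 (0.213) or siMED12 replicate 2 (0.143).

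**Figure D2:**
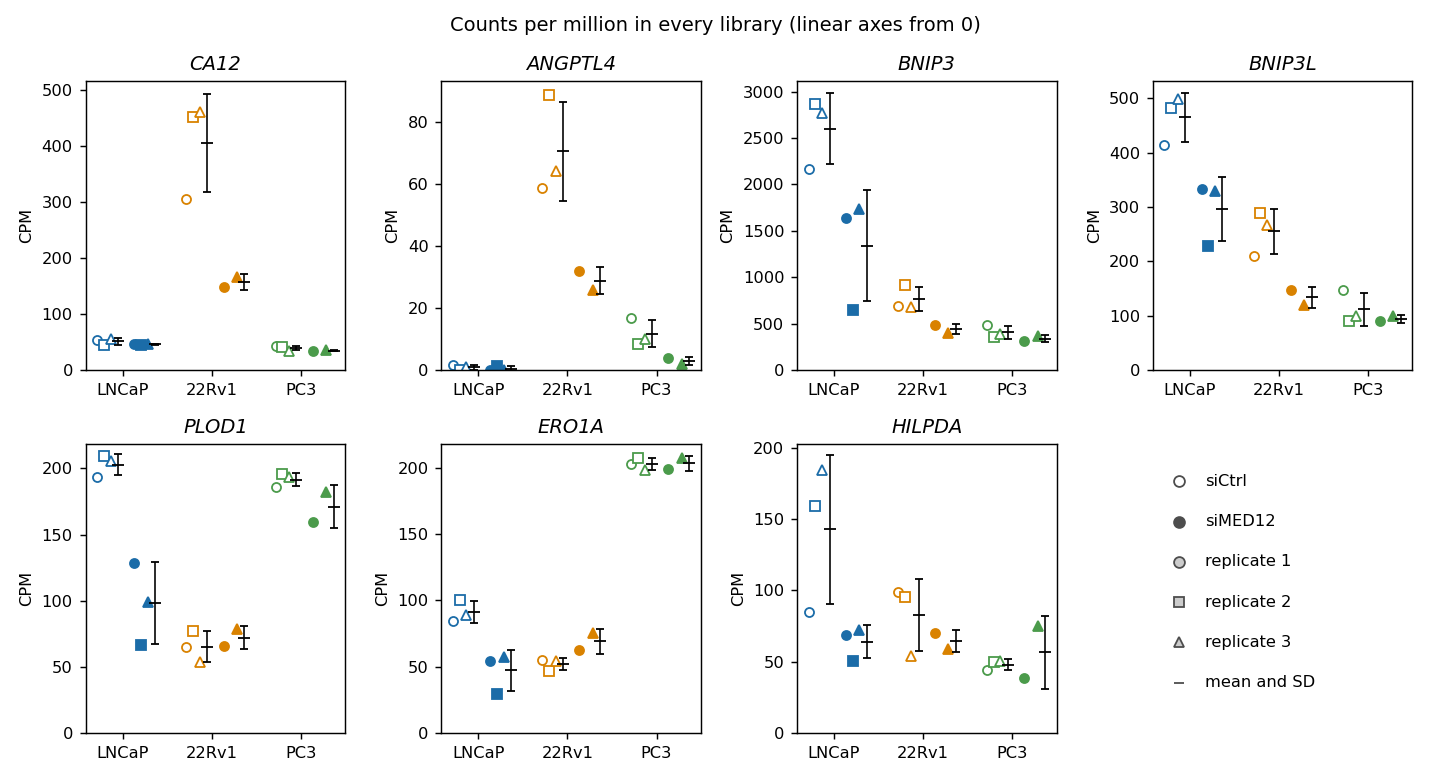
CPM in every library on linear axes from 0 for the 7 genes that passed the test in a line, in the mean of the lines or in a difference between lines; open symbols are siCtrl, filled are siMED12, shapes give the replicate number, and bars are mean and SD. BNIP3 falls from 2164 to 2863 CPM in LNCaP siCtrl to 651 to 1735 in siMED12, CA12 from 305 to 459 in 22Rv1 siCtrl to 147 and 167 in siMED12, and ERO1A stays between 198 and 207 CPM in all PC3 libraries.

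The libraries of the LNCaP knockdown differed among themselves. Replicate 2 had the lowest level of the 3 for 22 of 32 genes, replicate 3 for 6 and replicate 1 for 1, ties left out. The median difference of the 32 genes from the siCtrl mean, in log2 CPM, was -0.31 in replicate 1, -0.71 in replicate 2 and -0.47 in replicate 3, so each of the 3 libraries was shifted the same way. Replicate 2 was far below the other two for several genes. NDUFA4L2 was 65.7, 1.33 and 32.2 CPM in the siMED12 libraries (1 count in replicate 2) against 70.0 to 93.1 in siCtrl. PLOD2 was 53.2, 2.67 and 50.6 CPM against 61.3 to 94.5. EGLN3 was 67.1, 18.7 and 59.8 CPM against 80.6 to 118. None of these passed (log2 fold change -1.34 ± 0.36, -1.20 ± 0.35 and -1.0 ± 0.27, adjusted p = 0.144, 0.183 and 0.103, edgeR), although their groups did not overlap. Mitochondrially encoded genes took 12.9% of the counts of replicate 2, the highest share of any library, and 8.6% to 10.5% in the other LNCaP libraries. Androgen receptor and its targets summed to 4061 to 4838 CPM in LNCaP siMED12 against 5688 to 6413 in siCtrl, with 1 of those 6 genes, KLK2, past the threshold. The part of either in the results was not tested. Same-numbered LNCaP libraries deviated together over 6720 genes, though over the members alone r was 0.03, -0.18 and -0.03 in the 3 pairs. With the replicate number as a block 9 genes passed as lower: the 5 above and EGLN3, FAM162A, NDUFA4L2 and PLOD2 (adjusted p = 0.0143, 0.0056, 0.0105 and 0.0234, edgeR). The 0.369% of all genes called lower belongs to the fit without the block, and the share called with the block is not given here.

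Of the regulators, 0 passed the test in LNCaP without the block, and EGLN3, given above, was the 1 whose groups did not overlap. HIF1A was 97.8, 73.0 and 84.8 CPM in siCtrl and 112, 97.4 and 72.4 in siMED12, and the groups overlapped (log2 fold change 0.13 ± 0.23, adjusted p = 0.957, edgeR). ARNT was 0.02 ± 0.35, VHL 0.30 ± 0.26 and HIF1AN -0.24 ± 0.29 on the same scale, and each group overlapped its control. In the target groups, to be read against 50.4% of all genes negative and 0.369% called lower, 7 of 7 genes of acid handling and secreted factors were negative in LNCaP with 0 past the test, but 3 of them had at most 3 counts per library. CA12 was 44.4 to 56.2 CPM in siCtrl and 45.4 to 46.2 in siMED12. Of the collagen and secretory genes, 5 of 5 tested were negative and 2 passed, and of the mitochondrial genes 5 of 5 were negative and 2 passed. The chromatin and transcription genes had 5 of 6 negative and 0 past the test, among them KDM3A at 21.5 to 39.2 CPM in siCtrl and 9.20 to 25.2 in siMED12 (-1.0 ± 0.31, adjusted p = 0.262, edgeR).

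In 22Rv1 spheroids the genes that fell were CA12, ANGPTL4 and BNIP3L, and again none of the 32 rose. The 3 of 32 stand against 0.842% of all genes called lower and 0.994% called higher in this line. The log2 fold change was negative for 26 of 32 with a median of -0.32 (48.7% of all genes and 0.006). Without siMED12 replicate 3, in which the PC3-restricted genes were highest, 26 of 32 were negative and the median was -0.51. Every siMED12 library was below every siCtrl library for 10 of 32 genes (12.9% of all genes) and above for 2 (13.8%). With replicate 1 as the only siMED12 library these counts were 19 (25.3%) and 3 (27%). PC3 markers summed to 116 to 223 CPM in 22Rv1 siMED12 against 98.8 to 107 in siCtrl, with 1 of the 5, CAV1, past the threshold as higher. Their part in these results was not tested.

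CA12 (chromosome 15, 63321378 to 63381846) was 305, 451 and 459 CPM in siCtrl and 147 and 167 in siMED12. The 2 knockdown libraries lay close together and far below the controls, and the log2 fold change was -1.37 ± 0.16 (adjusted p = 5.18e-06, edgeR), and mean CPM fell by 61.2%. It passed in every fit run, and without siMED12 replicate 3 it was -1.45 (adjusted p = 0.000162). ANGPTL4 (chromosome 19, 8363289 to 8374370) was 58.6, 88.6 and 64.2 CPM in siCtrl and 31.8 and 25.7 in siMED12. The groups did not overlap, with a log2 fold change of -1.26 ± 0.27 (adjusted p = 0.00612, edgeR), but the counts were few and the call was lost without siMED12 replicate 1 (-1.43, adjusted p = 0.0548) or replicate 3 (-1.12, adjusted p = 0.0958). BNIP3L was 209.5, 289 and 267 CPM in siCtrl and 147 and 121 in siMED12. Its log2 fold change was -0.92 ± 0.19 (adjusted p = 0.00704, edgeR), and without siMED12 replicate 3 it was -0.79 (adjusted p = 0.120). It was the 1 gene of the 7 called in LNCaP or 22Rv1 that passed in both. How many of all genes passed in both lines is not given here, so this overlap is not set against it. BNIP3 was 696, 916 and 680.1 CPM in siCtrl and 485 and 405 in siMED12, below every control, without passing the test (-0.77 ± 0.24, adjusted p = 0.0964, edgeR), and was -0.65 (adjusted p = 0.409) without siMED12 replicate 3.

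The secretory pathway genes that fell in LNCaP, ERO1A and PLOD1, did not do so in 22Rv1. ERO1A was 54.7, 46.8 and 53.9 CPM in siCtrl and 62.6 and 75.7 in siMED12, above every control without passing (0.40 ± 0.22, adjusted p = 0.511, edgeR). PLOD1 was 65.1, 76.9 and 53.9 CPM in siCtrl and 65.7 and 78.2 in siMED12, with overlapping groups (0.15 ± 0.23). VEGFA was 74.2, 145 and 151 CPM in siCtrl and 39.2 and 100 in siMED12, groups that overlapped (-0.86 ± 0.31, adjusted p = 0.191, edgeR). P4HA1, a catalytic subunit of collagen prolyl hydroxylase, was 122, 214 and 150.1 CPM in siCtrl and 98.6 and 91.1 in siMED12, below every control without passing (-0.75 ± 0.23, adjusted p = 0.0921, edgeR). Among the regulators, HIF1A (-0.25 ± 0.25), EPAS1 (-0.04 ± 0.47), ARNT (0.15 ± 0.38), VHL (-0.02 ± 0.29) and HIF1AN (0.32 ± 0.26) did not pass, with adjusted p of 0.697 or more (edgeR).

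In PC3 spheroids 0 of the 32 genes passed the test, as did 0 of all 10566 genes (0% called), although 4 of the 32 had an unadjusted p under 0.05 (4.99% of all genes). These did not share a direction: EPAS1 (0.64 ± 0.31) and ZNF395 (0.56 ± 0.25) were higher, and FAM162A (-0.43 ± 0.19) and ANGPTL4 were lower. DESeq2 and limma called 0 of the 32 as well. Every siMED12 library was below every siCtrl library for 7 of 32 genes (11.9% of all genes) and above for 2 (8.8%), and with replicate 1 as the only siMED12 library 12 (28.1%) and 6 (23.9%). The log2 fold change was negative for 20 and positive for 11 of the 31 genes with any counts, and the median over the 32 was -0.07 (55.6% of all genes and -0.04). It ran from -0.15 (without siCtrl replicate 2) to 0.00 (without siCtrl replicate 1) as each PC3 library was left out, and was -0.05 without siMED12 replicate 3, in which the 2 genes restricted to LNCaP were highest. ANGPTL4 had the lowest value, with 16.8, 8.41 and 10.1 CPM in siCtrl and 3.96 and 2.07 in siMED12, or 3 and 1 counts (-1.80 ± 0.68, adjusted p = 0.891, edgeR). HIF1A was 445, 291 and 275 CPM in siCtrl and 344 and 315 in siMED12, EPAS1 24.6 to 40.0 and 24.9 to 62.0, and CA9 6.31 to 19.4 and 8.30 to 15.8. The groups overlapped for all 3. The smallest SE in this line was that of ERO1A, at 203, 207 and 198 CPM in siCtrl and 199 and 207 in siMED12 (0.00 ± 0.17). P4HA1 was 266 to 333 CPM in siCtrl and 280.0 to 288 in siMED12 (-0.04 ± 0.20).

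**Figure D3:**
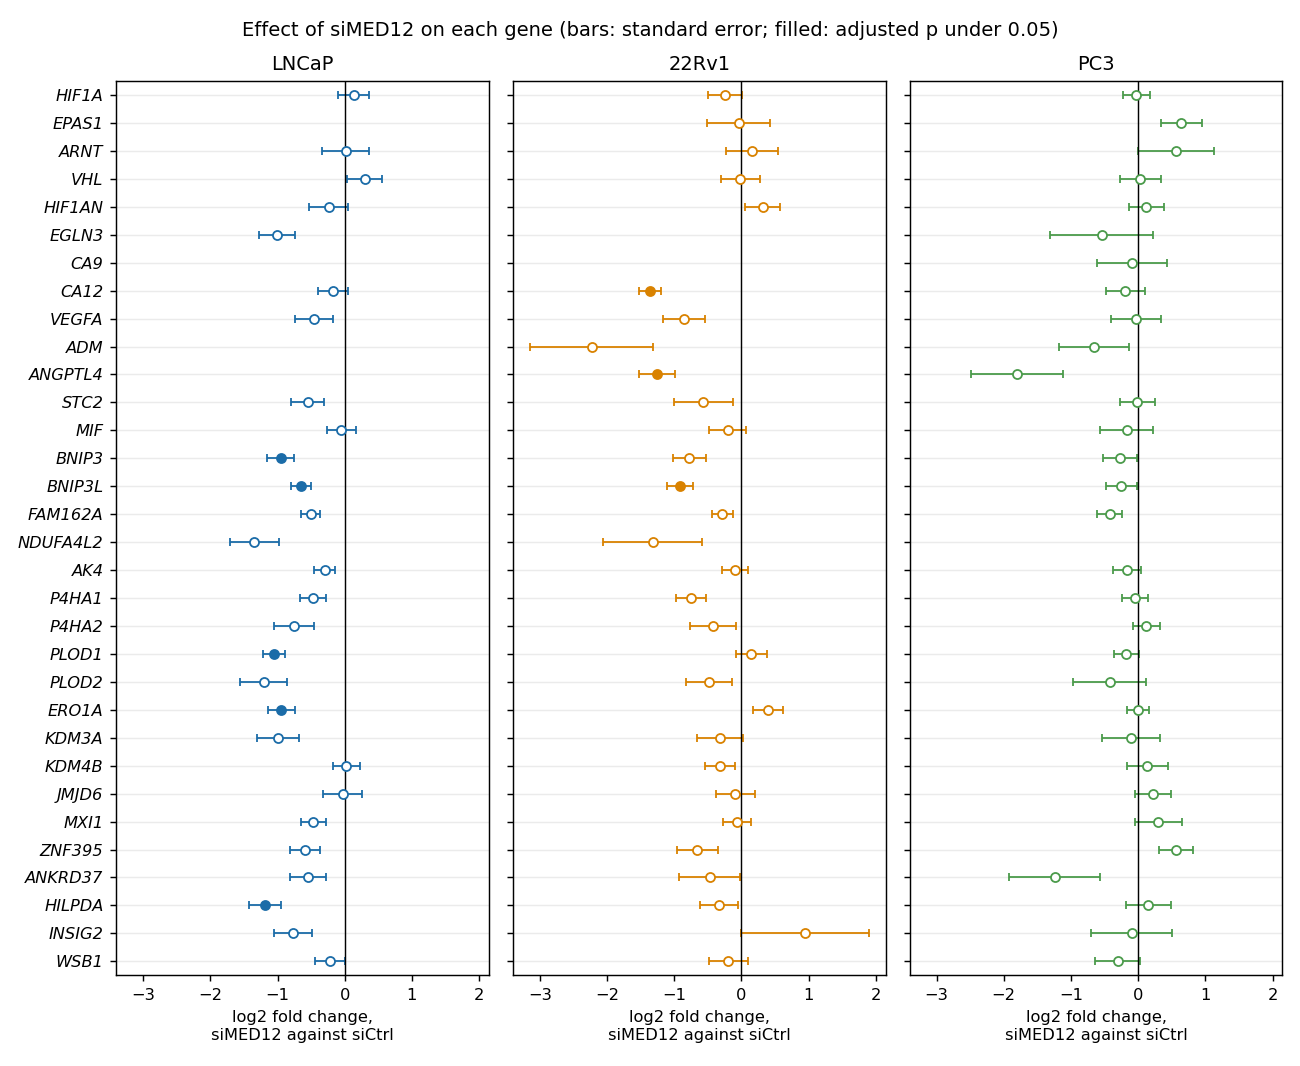
Log2 fold change of siMED12 against siCtrl for the 32 tested genes (rows) in each line (panels), with bars of 1 standard error; filled points passed adjusted p under 0.05, and genes with at most 3 counts in every library of a line are left out. In LNCaP 24 of the 28 points are negative and 5 are filled, in 22Rv1 25 of 30 and 3, and in PC3 20 of 31 and 0.

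Averaged over the 3 lines, BNIP3 and BNIP3L fell. The mean log2 fold change was -0.67 ± 0.13 for BNIP3 (adjusted p = 0.0170, edgeR) and -0.61 ± 0.11 for BNIP3L (adjusted p = 0.0095, edgeR), 2 of 32 genes where 0.208% of all genes were called lower and 0.0568% higher. In PC3 alone these genes were -0.28 ± 0.25 and -0.25 ± 0.23. With 22Rv1 siMED12 replicate 3 and PC3 siMED12 replicate 3 both left out, 0 genes passed in the mean, as without PC3 siMED12 replicate 1 alone, and 1 passed without LNCaP siCtrl replicate 2 or 3, 22Rv1 siCtrl replicate 2, 22Rv1 siMED12 replicate 3 or PC3 siMED12 replicate 3. CA12 (-0.58 ± 0.13) and FAM162A (-0.41 ± 0.09) were at an adjusted p of 0.0504 each (edgeR), and FAM162A was below every control library in LNCaP, 22Rv1 and PC3: 349.6 to 555 against 617 to 680.3 CPM, 435 and 469 against 479 to 664, and 145 and 178 against 201 to 244.

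Testing the difference between lines itself gave 1 gene. The effect on ERO1A was higher in 22Rv1 than in LNCaP by 1.34 ± 0.30 on the log2 scale (adjusted p = 0.0471, edgeR), 1 of 11 genes called in that direction among all tested (0.104%), with 0 of 32 called in the other (0.0852%). PLOD1 (1.20 ± 0.28, adjusted p = 0.0754) and CA12 (-1.20 ± 0.28, adjusted p = 0.0663) came close without passing (edgeR). The ERO1A difference lies near its threshold: it was 1.28 (adjusted p = 0.0668) with the counts estimated as carried over from another line subtracted and lost its call in most fits with a library left out, within 1.1 to 1.5. For PC3 against LNCaP and PC3 against 22Rv1, 0 of 32 differed by edgeR (0.0284% and 0.0946% of all genes did), with 6 and 4 at an unadjusted p under 0.05 (5.02% and 9.16% of all genes) and 0 under DESeq2 or limma. So BNIP3, for which LNCaP passed and PC3 did not, is not shown to differ between them (0.68 ± 0.32, adjusted p = 0.951, edgeR).

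**Figure D4:**
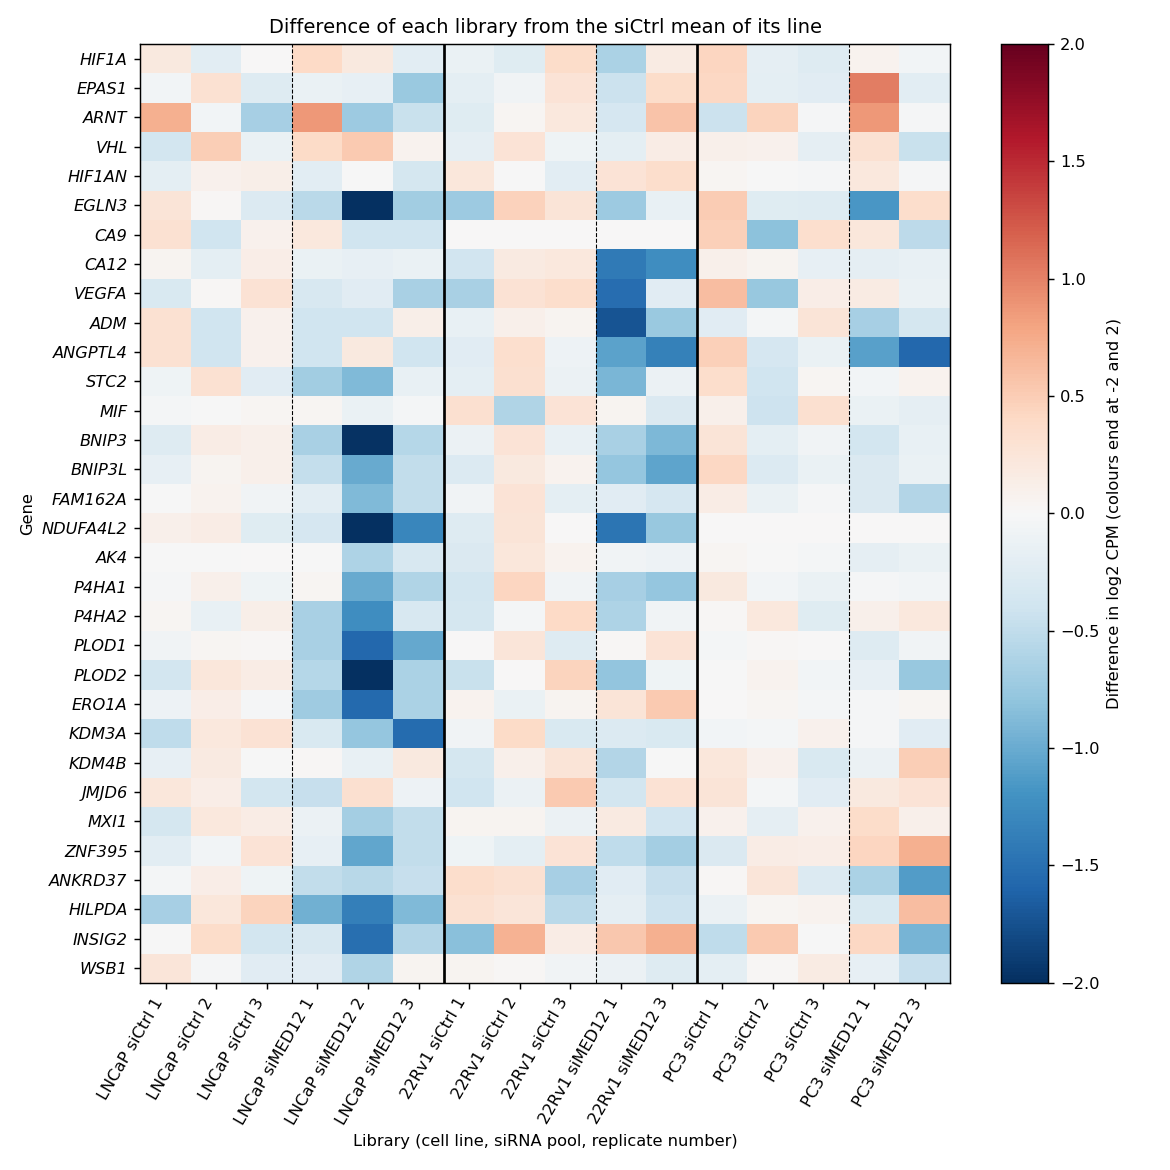
Difference in log2 CPM of each library (columns) from the siCtrl mean of its line, for the 32 tested genes (rows); blue is lower, red is higher, and the colours end at -2 and 2. The median over the genes is -0.31, -0.71 and -0.47 in the LNCaP siMED12 libraries, -0.40 and -0.19 in those of 22Rv1, and -0.04 and -0.14 in those of PC3.

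Other genes of the pathway, from lists kept apart from the 36, were counted in the same fits. These lists too were chosen with earlier results of these data known. The partners of VHL in its ligase (4 of 4 tested) and the transcriptional partners of HIF (5 of 8) had 0 calls by edgeR in each line, with 0 and 3 unadjusted p-values under 0.05 over the 3 lines. Of 27 further HIF targets outside glycolysis, 23 were tested, and 4 fell in LNCaP and 3 in 22Rv1, with 0 in PC3 (0.369%, 0.842% and 0% of all genes were called lower). BHLHE40, a circadian repressor, was 142 to 205 CPM in LNCaP siCtrl and 43.4, 9.34 and 29.9 in siMED12 (-2.62 ± 0.27, adjusted p = 2.43e-07, edgeR). DDIT4, an inhibitor of mTORC1, was 319.8 to 538 CPM in LNCaP siCtrl and 163 to 215 in siMED12, and 197 to 473 CPM in 22Rv1 siCtrl and 43.5 and 141 in siMED12. It passed in both lines (-1.21 ± 0.24 and -1.82 ± 0.31). The others were CCNG2 and DUSP1 in LNCaP and ERRFI1 and DUSP1 in 22Rv1. Of 20 glycolytic targets, 18 were tested, and 8 fell in LNCaP, 1 in 22Rv1 and 0 in PC3, against the same shares of all genes. Their median log2 fold change was -0.62, -0.43 and -0.14 in the 3 lines, beside -0.57, -0.32 and -0.07 for the 32 genes outside glycolysis. For the 23 further targets outside glycolysis it was -0.59, 0.006 and -0.14, with 11 negative and 12 positive in 22Rv1. In the mean of the 3 lines 1 of these 23 and 4 of the 18 glycolytic targets were called lower, against 0.208% of all genes. The effect on 1 of the 23 was higher in PC3 than in LNCaP (adjusted p = 0.0424, edgeR), where 0.0284% of all genes differed. Neither list had a further call in a difference of effects between lines.

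Of the 36 genes, 4 had too few counts to test. EGLN1 and NDRG1 had at most 2 and 4 counts in a library, LOX and RORA at most 8 and 6, and no direction is drawn for them. For NDRG1, a stress gene often used as a hypoxia marker, the whole of the last 500 exonic bases is shared with a long noncoding RNA on the same strand, which had 0 counts. Reads that fit more than 1 gene can be lost in counting, and how they were treated is not given in the sources used here. Apart from EGLN1, MIF and NDRG1, no gene of the 36 shares its last 500 exonic bases with a gene on its own strand, and 7 share some with a gene on the opposite strand.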

How the data were processed

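Libraries were made by BRB-seq, in which samples are barcoded at reverse transcription and transcript 3′ ends are sequenced, so a count does not scale with transcript length. The authors aligned and counted reads with STARsolo on GRCh38.p13 and deposited raw counts per gene, not normalized. They also deposited log2 CPM, which was recomputed from the counts (edgeR filter, TMM scaling, prior count of 2) and matched to within 5e-14. Collapsing of molecular identifiers and use of strand are not given in the sources used here. Samples were grouped by their labels.

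Counts were tested with edgeR 4.0.16 (R 4.3.3), by the quasi-likelihood test without the legacy option, in 1 fit of the 16 libraries with 6 group means, a minimum count of 10 and total of 15, and Benjamini-Hochberg adjustment over 10566 genes. The design had not set that option, and the legacy form was added as an alternative. SE is the size of the log2 fold change divided by the square root of F. CPM values are TMM-scaled. The other alternatives used DESeq2 1.42.0, limma 3.58.1 and changed filters, libraries and blocks. Separation counts without the libraries that stood apart were added after the data were seen. The code was tested on simulated counts. Same-numbered LNCaP libraries had correlated deviations in 3 of 3 pairs (r = 0.132 to 0.177). These values are weak, and deviations from the mean of a group of 3 are not independent, so they do not establish a pairing. The 2 pairs of 22Rv1 (0.190 and 0.253) and of PC3 (0.0787 and 0.117) were too few to pair. Over the members alone r was 0.51 and 0.55 in the 22Rv1 pairs, unlike in LNCaP, and -0.17 and -0.10 in those of PC3. With 2 siMED12 libraries in a line, their deviations mirror each other, so the 2 values of a line are not independent. Between replicates of a group the variance of counts was 1.60 to 3.43 times that of sampling noise, so none was counted as a copy. Genes named are most of the members, with full values for those whose siMED12 effect passed the threshold, and some markers and other pathway genes. JMJD6, ANKRD37 and WSB1 enter only the counts, medians and figures. Not every level and effect of the regulators is printed. The members and lists were chosen with earlier results of these data known.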

Additional observations from a re-analysis of the deposited data

Results flagged for a closer look

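The effect of siMED12 on ERO1A differed between 22Rv1 and LNCaP by a test of the difference itself. The log2 fold change was 0.40 ± 0.22 (SE) in 22Rv1 and -0.94 ± 0.20 in LNCaP, a difference of 1.34 ± 0.30 with an adjusted p = 0.0471 (edgeR). In LNCaP 3 of 3 siMED12 libraries lay below every control, and in 22Rv1 2 of 2 lay above every control. With 22Rv1 siMED12 replicate 3 left out the difference was 1.21 (adjusted p = 0.20), and with LNCaP siMED12 replicate 2 left out it was 1.1 (adjusted p = 0.130). Over the alternatives the adjusted p ran from 0.0126 to 0.228.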

How the results depend on the processing

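No called siMED12 effect, and no called difference of effects between lines, changed sign in these alternatives. The siCtrl differences between lines were not checked for sign. The number of the 36 called in LNCaP was 5, and it was 3 by DESeq2, 3 by limma, 3 by robust edgeR, 9 with all genes of at least 1 count and 9 with the replicate block, and 1 to 8 with a library left out (1 with siMED12 replicate 2 absent, or either of siCtrl replicates 2 and 3, and 8 with siMED12 replicate 1 absent). The larger counts include genes not among the 5. The share of all genes called in each alternative is not given here, so these counts are not set against it. The 3 in 22Rv1 became 6 with all genes of at least 1 count and 2 to 4 with a library left out, and the 0 in PC3 stayed 0 in every alternative. The 2 in the mean became 4 with limma, 6 with all genes, 4 with genes of at least 10 counts in every library, 5 with the replicate block, 4 with the legacy test and 0 with both libraries that stood apart left out, and 0 to 4 with a single library left out (4 with LNCaP siMED12 replicate 1 absent). The 1 gene that differed between 22Rv1 and LNCaP became 3 with all genes, 2 with the 10-count filter, 3 with the replicate block, and 0 with the counts estimated as carried over subtracted, with both such libraries left out or with only the compared lines fitted, and 0 to 1 with a library left out (1 with any of LNCaP siMED12 replicates 1 and 3, 22Rv1 siCtrl replicate 1 and PC3 siCtrl replicate 1 absent). With the 10-count filter the siCtrl differences were 8, 13 and 12 in place of 17, 27 and 24, where 17 of the genes remain to be tested. With a library left out they were 14 to 18, 23 to 27 and 20 to 24. The replicate block changed no other call count by over 1.5 times, and it could not be fitted as a pairing of siCtrl groups between lines. PLOD1 in LNCaP and CA12 in 22Rv1 passed in every alternative. Where no reason is given, the cause of a change was not tested. Depth limits the low genes: 17 of the 32 had at least 10 counts in every library, and 7 had a library at 0.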

Other observations

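BNIP3 has 39 annotated copies (pseudogenes) in the count table, and their counts were set beside those of BNIP3. In LNCaP the copies held 18.6% to 21.5% as many counts as BNIP3 in siCtrl and 16.4% to 17.5% in siMED12. In 22Rv1 the range was 8.49% to 13.1% in siCtrl and 7.66% to 8.23% in siMED12, and in PC3 13.1% to 17.7% and 14.3% to 19.2%. For AK4 and its 6 copies the share was 3.57% to 17.0% over all libraries. How the authors' counting divided reads between a gene and its copies is not given in the sources used here.

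The 36 genes together took 0.485% to 0.581% of the counts in LNCaP siCtrl and 0.414%, 0.229% and 0.373% in the siMED12 libraries. In 22Rv1 the share was 0.291% to 0.381% in siCtrl and 0.225% and 0.240% in siMED12, and in PC3 0.239% to 0.290% and 0.247% to 0.261%. BNIP3 alone is the largest single part of the sum in LNCaP, so the sum in that line is not separate from the BNIP3 result. It held 1306 of 3082, 1999 of 4285 and 2616 of 5554 counts in siCtrl. In siMED12 it held 1173 of 3001, 488 of 1725 and 1509 of 3388.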
